A study of Homo sapiens with 35 samples.

Results

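Glycolysis and hypoxia genes were read in SUM149 cells, a human line established from inflammatory breast cancer of the triple-negative kind, which lacks hormone receptors and HER2. The set lists 38 genes by symbol: glucose transporters, enzymes of glycolysis and its control, lactate and pyruvate handling, subunits and hydroxylases of the hypoxia-inducible factor (HIF), and genes known to rise in low oxygen. For each symbol the probe set that carries that symbol alone, with the highest mean over all arrays, was taken. This gave 35 measured genes among the 22384 genes tested; SLC16A1, SLC16A3 and CA9 had no probe set of their own in the table used and are not described. None of the 35 had a second probe set to choose from. Affymetrix human transcriptome arrays were hybridised with RNA from polysomes, the pool of transcripts carrying several ribosomes, or with total RNA. Cells had DMSO (the solvent control), IR (read here as ionizing radiation), PP242, RAD001, PP242 + IR or RAD001 + IR. PP242 inhibits the kinase site of mTOR in both of its complexes, and RAD001 (everolimus) is a rapamycin analog. Each of the 6 treatments was measured in both RNA fractions with 3 replicates, except PP242 + IR in total RNA with 2, which makes 35 arrays in 12 groups. Every sample title carries the term biological replicate with a number. Doses, times and whether such replicates were grown as separate cultures are not in the labels. The p-values therefore reflect only how much these samples varied, and part of that variation may be technical. All of the data come from a single cell line.

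Glycolysis turns glucose into pyruvate in the cytosol, and many tumour cells pass that pyruvate on to lactate even when oxygen is present. HIF is a pair of proteins whose alpha subunit (HIF1A or EPAS1) is marked for destruction by oxygen-dependent prolyl hydroxylases such as EGLN1 and EGLN3; when it persists it switches on glucose transporters, most glycolytic enzymes, VEGFA and others. mTOR signalling is known to raise HIF1A and glycolytic gene expression in many cell types.

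Levels are the deposited log2 values, and differences are log2 differences from a single limma fit over all 35 arrays, with the standard error (SE) after ±. A gene is said to pass when its Benjamini-Hochberg adjusted p, taken over all 22384 genes, is under 0.05. Levels of different genes come from different probes and are not set against each other. EGLN3 lay below the median gene on all 35 arrays and PFKFB4 on 33, so their differences are between dim signals; the other members lay above it on every array, except ALDOC, which lay below it on 7. Of 12 epithelial marker genes 9 were measured and all 9 lay above the median gene, whereas ESR1 and PGR, the receptors measured of the 3 that triple-negative cells lack, did not. Above the median gene were 1 of 9 fibroblast, 2 of 9 leukocyte and 1 of 8 endothelial markers.

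Several arrays stood apart. On 8 of them (replicate 3 of every inhibitor group measured in triplicate and replicate 2 of PP242 + IR in total RNA) the median level of DNA replication genes was 8.12 to 8.71, against 9.39 to 11.36 on the other 27. On 2 total RNA arrays, replicate 2 of PP242 and replicate 2 of RAD001, the values over genes were the most compressed (interquartile range 2.66 and 2.96, against 3.20 to 3.71 on the other 15 total RNA arrays, of which replicate 2 of DMSO was the lowest, and 3.48 to 3.88 over the polysome arrays).

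Against DMSO, a single member passed in any of 15 comparisons: PFKFB3 fell in polysome RNA after PP242. It was 1 of the 60 genes, or 0.268% of all genes, that passed there (12 higher and 48 lower; after quantile normalization 43 of 75 were higher), and 1 of 35 members is 2.86%. Less RNA of a transcript per cell and fewer cells that carry it cannot be told apart in such bulk samples. No member passed in PP242 total RNA, where 0.125% of genes did, in PP242 + IR polysome RNA (0.0938%), in PP242 + IR total RNA (0.0268%) or in RAD001 + IR total RNA (0.00893%). In the other 10 comparisons with DMSO (IR and RAD001 throughout, RAD001 + IR polysome RNA, and polysome minus total for every treatment) 0% of genes passed. At an unadjusted p under 0.05 in the limma fit, members numbered 3 in PP242 polysome RNA, 7 in PP242 total RNA, 4 in RAD001 total RNA, 1 in RAD001 polysome minus total, 1 in PP242 + IR polysome RNA, 3 in PP242 + IR total RNA, 1 in RAD001 + IR polysome RNA and 3 in RAD001 + IR total RNA, and 0 in the remaining 7. Of all genes 8.44%, 9.42%, 7.63%, 1.90%, 5.70%, 5.25%, 2.36% and 6.23% had such a p, in the same order. In the remaining 7 the share of all genes was 0.764% to 3.06%.

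PFKFB3 makes fructose 2,6-bisphosphate, the strongest known activator of phosphofructokinase, and is itself a HIF target. In polysome RNA it read 7.89, 7.67 and 8.004 on the DMSO arrays and 7.01, 7.09 and 7.18 on the PP242 arrays. On the PP242 + IR arrays it read 6.99, 6.91 and 7.34. All 6 PP242 and PP242 + IR arrays lay below all 3 DMSO arrays, with no overlap. The difference was -0.76 ± 0.16 after PP242 (adjusted p = 0.0397) and -0.77 ± 0.16 after PP242 + IR (adjusted p = 0.0604), so the second, of about the same size, missed the threshold. The PP242 call was marginal: leaving out any of the 6 arrays in turn moved the difference between -0.85 and -0.69 and lost it each time, and without the 8 arrays that stood apart it was -0.80 (adjusted p = 0.0878).

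**Figure D1:**
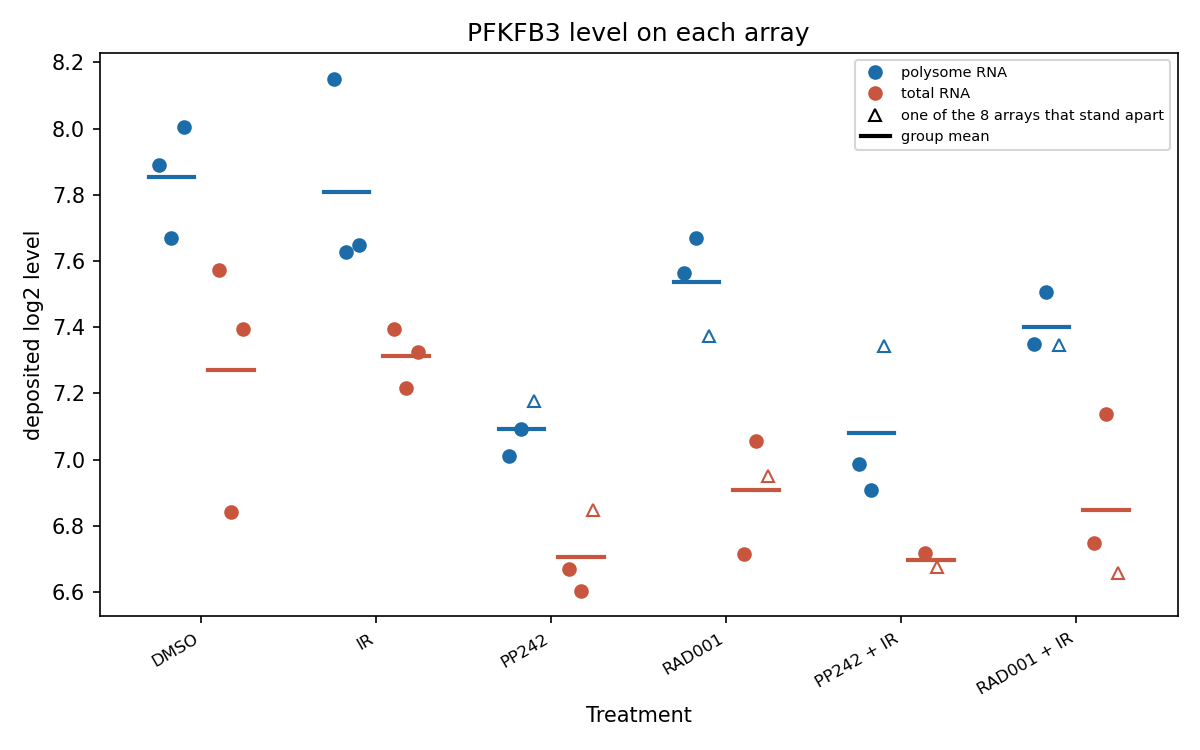
Deposited log2 level of PFKFB3 (vertical axis) on each of the 35 arrays by treatment (horizontal axis), polysome RNA in blue and total RNA in red, with bars at group means and open triangles for the 8 arrays that stand apart. In polysome RNA the PP242 arrays lie between 7.01 and 7.18 and the DMSO arrays between 7.67 and 8.004.

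After RAD001 the polysome level of PFKFB3 was 7.56, 7.67 and 7.37, and after RAD001 + IR it was 7.35, 7.51 and 7.35. RAD001 replicate 2 stood level with the lowest DMSO array, and the other RAD001 arrays and all RAD001 + IR arrays lay below it. These differences were -0.32 ± 0.16 and -0.45 ± 0.16 and did not pass (both adjusted p values round to 1). Set directly against RAD001, PP242 was -0.44 ± 0.16 in polysome RNA (95% interval -0.78 to -0.10, adjusted p = 1), so the inhibitors were not shown to differ. IR alone left 8.15, 7.63 and 7.65, which overlapped DMSO.

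In total RNA PFKFB3 read 7.57, 6.84 and 7.39 after DMSO and 6.67, 6.60 and 6.85 after PP242. The PP242 range reached just above the lowest DMSO array, replicate 2. The total RNA differences were -0.56 ± 0.16 after PP242, -0.57 after PP242 + IR, -0.36 after RAD001 and -0.42 after RAD001 + IR, and none passed (adjusted p from 0.21 to 0.698). Without DMSO replicate 2 the PP242 value was -0.78 and passed (adjusted p = 0.0391). Polysome minus total, which the series' design text calls translational efficiency, was -0.20 ± 0.23 after PP242: the lower polysome level came with a lower total level, and the part beyond it did not pass (adjusted p = 1).

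The promoter of PFKFB3 is shown with those of PGK1 and LDHA, textbook HIF targets which were both lower on the same 8 arrays, because HIF acts through short sites there. Of the 35 members 30 matched the RefSeq promoter table (GRCh38.p14), with 54 start sites among them; SLC2A3, PFKFB2, VEGFA, BNIP3L and NDRG1 had no entry. The core of the HIF site, searched as ACGTG or GCGTG on either strand (as CACGT or CACGC when it lies on the other), occurred in the 250 bases before 32 of the 54 starts (59.3%), and in 15172 of 35116 starts of all genes (43.2%). For the glycolytic enzymes alone the core occurred before 17 of 34 starts (50%). The starts of all genes were not matched to the members for base composition or level, and the differences in share were not tested. Starts of one gene share sequence where they lie close together, and CACGTG counts as 2 matches because the motifs overlap in it. Capitals mark the matches, and each line gives the 250 bases before a start, 5′ to 3′ on the gene's strand (plus for all 4).
PFKFB3, upstream start, chr10:6144671-6144920: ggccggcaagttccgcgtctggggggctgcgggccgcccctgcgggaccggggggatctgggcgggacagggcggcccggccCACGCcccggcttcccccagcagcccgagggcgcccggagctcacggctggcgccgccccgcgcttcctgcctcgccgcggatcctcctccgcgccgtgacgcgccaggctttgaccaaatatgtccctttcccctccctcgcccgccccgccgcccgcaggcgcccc
PFKFB3, downstream start, chr10:6202682-6202931: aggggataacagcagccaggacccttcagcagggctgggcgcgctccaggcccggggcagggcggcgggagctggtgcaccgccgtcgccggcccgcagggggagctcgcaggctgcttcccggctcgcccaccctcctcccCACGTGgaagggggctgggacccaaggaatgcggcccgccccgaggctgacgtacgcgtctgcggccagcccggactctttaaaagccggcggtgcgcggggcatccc
PGK1, chrX:78103998-78104247: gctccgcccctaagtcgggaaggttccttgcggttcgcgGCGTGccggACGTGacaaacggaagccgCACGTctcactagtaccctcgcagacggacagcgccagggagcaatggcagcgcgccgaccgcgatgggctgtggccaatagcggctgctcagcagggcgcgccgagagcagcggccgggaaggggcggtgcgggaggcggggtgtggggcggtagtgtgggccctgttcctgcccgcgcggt
LDHA, upstream start, chr11:18394313-18394562: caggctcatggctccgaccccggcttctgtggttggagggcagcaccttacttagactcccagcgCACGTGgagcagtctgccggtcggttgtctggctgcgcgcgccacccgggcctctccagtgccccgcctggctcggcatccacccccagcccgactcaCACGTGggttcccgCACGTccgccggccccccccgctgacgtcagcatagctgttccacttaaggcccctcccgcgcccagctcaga
PFKFB3 held 1 match before its upstream start and a CACGTG before its downstream one. PGK1 held 3 matches 211, 202 and 183 bases before the start. LDHA held 5 before its upstream start, among them a pair of CACGTG, and 1 before its downstream start, which is not printed. A match describes the letters only. A pyrimidine tract at the start itself (C, then 4 of C or T), the mark of the transcripts known to depend most on mTOR for translation, stood at 2 of the 54 starts (3.7%), against 4.07% of all starts; they belonged to PFKM and TPI1.

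PFKFB2 and PFKFB4 are the other members of the same enzyme family measured. PFKFB2 in polysome RNA read 7.81, 8.05 and 8.15 after DMSO and 8.03, 8.27 and 10.02 after PP242. With RAD001 it read 8.12, 8.21 and 10.002. In each case replicate 3, which is among the arrays that stood apart, was far above the other replicates, and those overlapped DMSO or lay close to it. The mean differences of 0.77 ± 0.70 and 0.77 ± 0.70 therefore rest on those arrays and did not pass (adjusted p = 0.918 and 1); without the 8 arrays they were 0.14 ± 0.15 and 0.16 ± 0.15. PFKFB4 stayed between 4.71 and 5.15 on all 35 arrays, and none of its differences from DMSO passed.

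The glucose transporters did not pass in any comparison with DMSO. SLC2A1 (GLUT1), the main basal glucose importer, read 12.02, 11.64 and 11.75 in total RNA after DMSO and 11.55, 11.01 and 10.73 after RAD001 + IR, where the difference was largest among the 3-replicate groups (-0.71 ± 0.34, adjusted p = 0.796). In polysome RNA its differences ran from -0.38 to 0.10, and the DMSO arrays alone spread from 11.83 to 12.99. SLC2A3 (GLUT3), a high-affinity importer best known from neurons, ranged from 5.22 to 6.27 and differed from DMSO by -0.17 to 0.25.

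Of the 15 glycolytic enzymes none passed against DMSO in either fraction. In total RNA most of them lay below DMSO under every inhibitor: 13 of 15 after PP242 (median -0.36), 13 after RAD001 (median -0.39), 13 after PP242 + IR (median -0.36) and 14 after RAD001 + IR (median -0.35), while the medians of all genes were 0.02, -0.02, -0.02 and -0.03. For the 11192 genes at or above the median level they were -0.10, -0.07, 0.01 and -0.01. These 4 comparisons share the DMSO arrays and the 15 genes share the arrays, so the counts are a description. In polysome RNA the enzymes lay on both sides of DMSO, with medians of -0.08, -0.02, -0.11 and -0.10 in the same order. Those of the same brighter genes were -0.09, -0.06, -0.06 and -0.06. Without the 8 arrays that stood apart the total RNA medians became -0.25, -0.31, -0.10 and -0.16, with 15, 14, 12 and 13 enzymes below DMSO. Replicate 2 of PP242 and of RAD001, the compressed arrays, stay in every total RNA value given without the 8. After quantile normalization the total RNA medians of all 35 members moved from -0.25, -0.24, -0.18 and -0.17 to -0.13, -0.18, -0.23 and -0.22. They thus came closer to DMSO after PP242 and RAD001 and moved away after PP242 + IR and RAD001 + IR.

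PGAM1, the mutase that moves the phosphate of 3-phosphoglycerate, had the largest difference. Its total RNA level was 11.68, 11.29 and 12.10 after DMSO and 11.05, 10.57 and 9.83 after PP242. All 3 PP242 arrays lay below all 3 DMSO arrays, and the difference was -1.21 ± 0.38 (unadjusted p = 0.00371, adjusted p = 0.252), or -0.88 ± 0.26 without the 8 arrays. The latter rests on the PP242 arrays at 11.05 and 10.57, of which the lower, replicate 2, is a compressed array. After PP242 + IR it read 11.20 and 10.18, -1.003 ± 0.42 from DMSO (adjusted p = 0.865). Replicate 2 there is one of the 8, and without them the difference was -0.49 ± 0.33, from 1 array assumed to vary like the other groups. In polysome RNA the PP242 arrays read 11.87, 12.27 and 10.90 and the DMSO arrays 12.17, 12.07 and 12.48; replicates 1 and 3 lay below all DMSO arrays and replicate 2 among them.

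GAPDH, the dehydrogenase often used as a reference gene, read 16.97, 16.95 and 16.95 in total RNA after DMSO and 16.71, 16.40 and 16.45 after PP242. The groups did not overlap, and the difference of -0.44 ± 0.13 had the second lowest p of the members there (unadjusted 0.00306) but did not pass (adjusted p = 0.237). After quantile normalization it was -0.19. TPI1, the triose phosphate isomerase, read 12.85, 12.24 and 13.10 after DMSO, 12.59, 11.99 and 11.49 after PP242 and 12.54, 11.96 and 11.56 after RAD001. RAD001 replicate 1 lay above the lowest DMSO array, so those groups overlapped, and the RAD001 difference of -0.71 ± 0.29, the lowest p of the members in that comparison, had an adjusted p of 0.584 and was -0.48 without the 8 arrays. The probe set of GAPDH and those of other abundant enzymes may also read processed pseudogenes, which was not tested.

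HK1, the hexokinase bound to mitochondria, had the lowest p of the enzymes above DMSO in polysome RNA under all 4 inhibitor treatments. It read 10.34, 10.92 and 10.56 after DMSO and 10.77, 11.17 and 11.21 after PP242, which overlapped. Its differences were 0.44 ± 0.18 after PP242, 0.35 after PP242 + IR, 0.33 after RAD001 and 0.29 after RAD001 + IR (adjusted p from 0.456 to 1), and without the 8 arrays 0.36, 0.24, 0.19 and 0.19. In total RNA HK1 differed from DMSO by -0.01 to 0.07. HK2, the inducible hexokinase of tumours, differed by -0.62 after RAD001 in total RNA, with arrays at 7.40, 7.35 and 8.31 against 8.50, 8.03 and 8.37 after DMSO, so that RAD001 replicate 3 overlapped DMSO and the other RAD001 arrays did not; without the 8 arrays, which include replicate 3, it was -0.93.

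**Figure D2:**
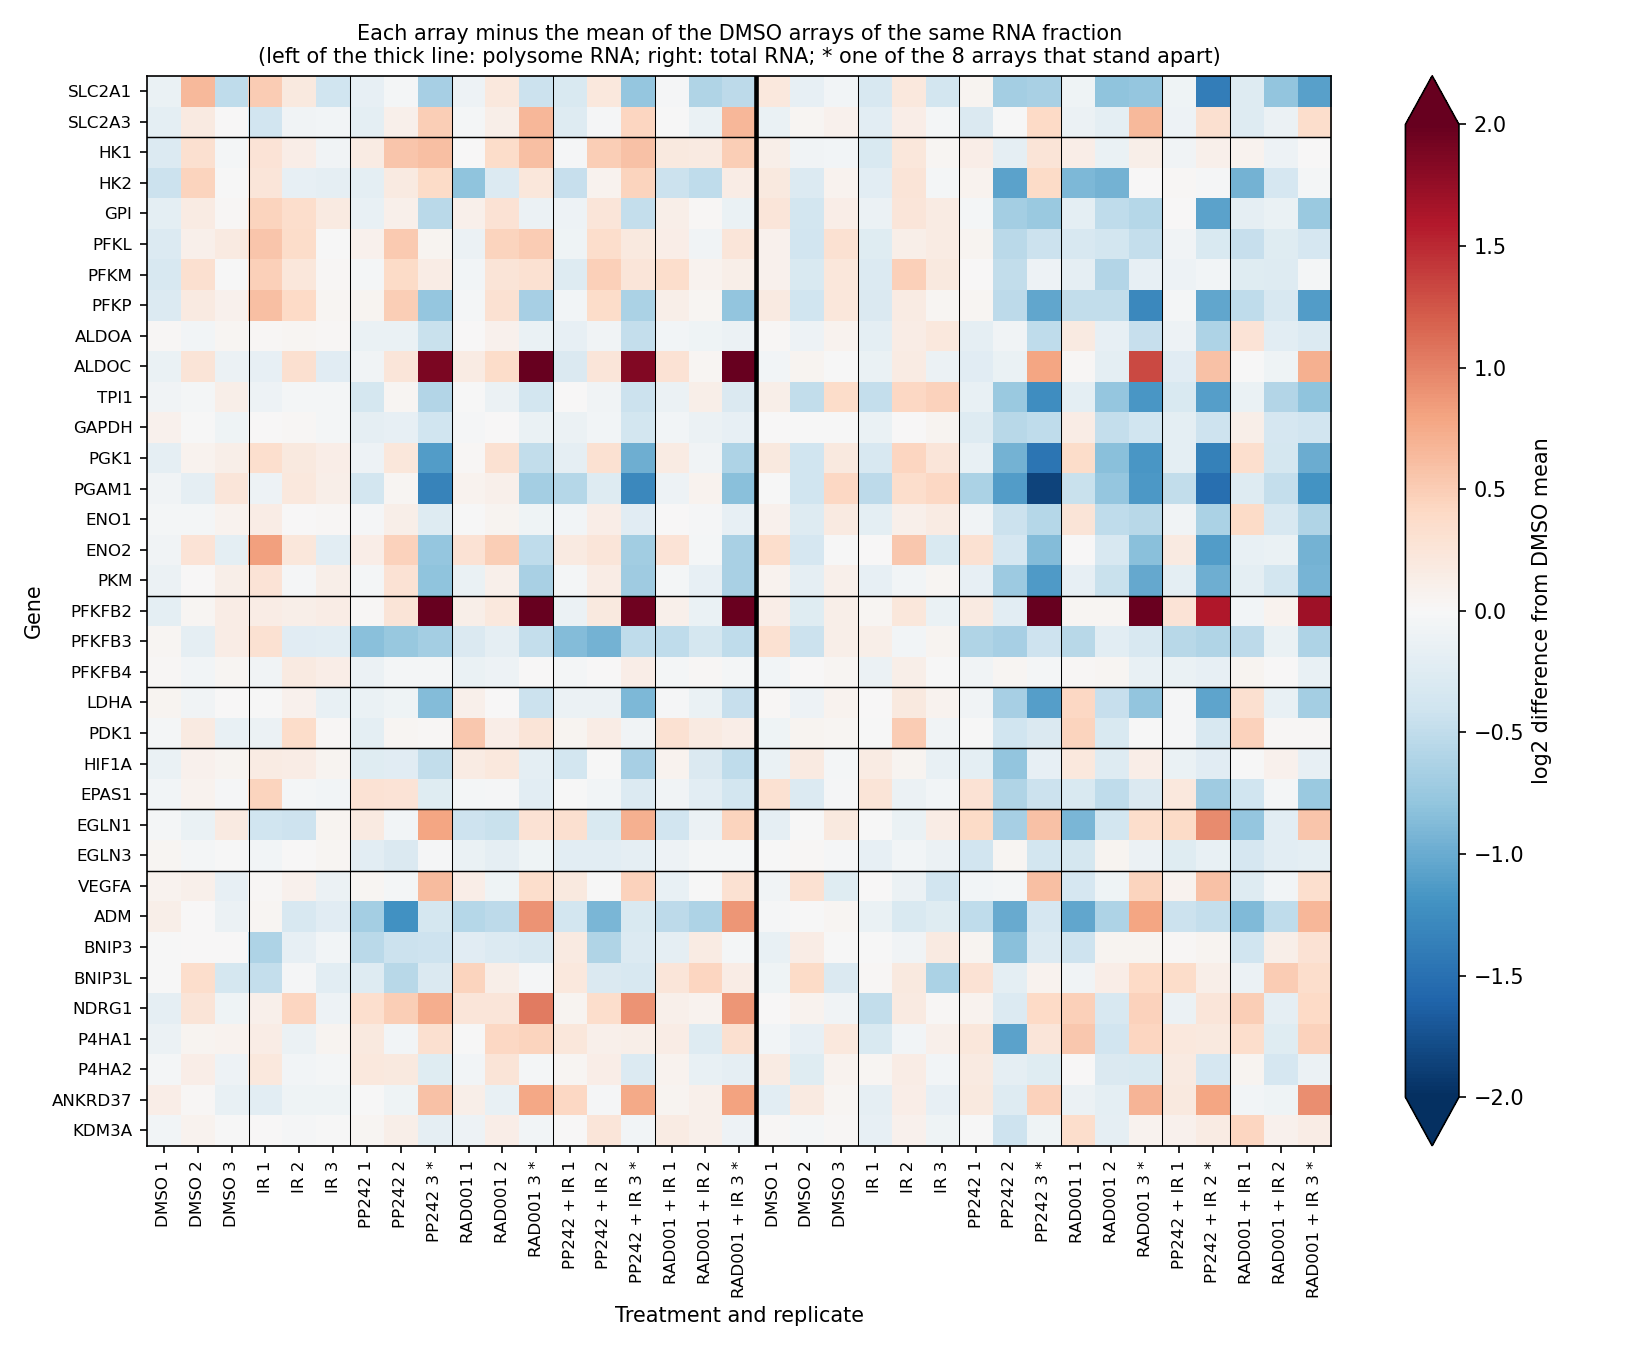
Log2 difference of each of the 35 members (rows, in role groups) on each of the 35 arrays (columns) from the mean of the DMSO arrays of the same fraction, polysome RNA left and total RNA right of the thick line. The arrays marked with an asterisk carry the deepest colours, with PFKFB2 and ALDOC high and PGAM1 and PGK1 low.

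LDHA, which turns pyruvate into lactate, read 12.79, 12.67 and 12.83 in total RNA after DMSO and 12.69, 12.10 and 11.66 after PP242, a difference of -0.61 ± 0.30 that did not pass (adjusted p = 0.542) and was -0.36 ± 0.20 without the 8 arrays. PP242 replicate 1 overlapped DMSO. After RAD001 the arrays spread from 11.97 to 13.17 on both sides of DMSO. PDK1, the kinase that shuts pyruvate dehydrogenase, differed from DMSO by -0.23 to 0.31, with no pass.

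HIF1A and EPAS1 (HIF-2 alpha) transcripts did not pass against DMSO; their proteins, through which oxygen acts, were not measured. HIF1A polysome levels were 13.54, 13.76 and 13.72 after DMSO, 13.43, 13.44 and 13.18 after PP242 and 13.30, 13.67 and 13.01 after PP242 + IR. The PP242 arrays lay below the DMSO arrays, by -0.32 ± 0.17 (adjusted p = 0.686), and 1 PP242 + IR array overlapped them. RAD001 left 13.84, 13.88 and 13.47, on both sides of DMSO, and the direct difference between PP242 and RAD001 in total RNA was -0.41 ± 0.17 (unadjusted p = 0.0255, adjusted p = 0.999). EPAS1 differed from DMSO by -0.39 to 0.12.

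EGLN1, the main HIF prolyl hydroxylase, read 11.98, 12.16 and 12.36 in total RNA after DMSO and 12.55 and 13.12 after PP242 + IR. Both PP242 + IR arrays lay above the DMSO arrays, the higher being among the 8 that stood apart, and the difference was 0.67 ± 0.40 (adjusted p = 0.959), or 0.38 ± 0.34 from the 1 array left without the 8. EGLN3, a hydroxylase known to rise in low oxygen, stayed dim (4.19 to 4.66). Its total RNA difference after RAD001 + IR was -0.25 ± 0.10 (adjusted p = 0.698), and the arrays read 4.23, 4.36 and 4.37 against 4.57, 4.60 and 4.55 after DMSO. After PP242 + IR in polysome RNA it was -0.20 ± 0.10 (adjusted p = 0.892). For PP242 in total RNA (-0.24 ± 0.10, adjusted p = 0.423) EGLN3 passed once replicate 2, a compressed array, was left out with the other one (-0.38, adjusted p = 0.0353), and after quantile normalization (-0.32, adjusted p = 0.0203).

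The 9 measured hypoxia response genes lay on both sides of DMSO in every comparison. Their medians ran from -0.08 to 0.19, and none passed. ADM encodes the vasodilator peptide adrenomedullin. In polysome RNA it read 7.28, 7.16 and 7.03 after DMSO, 6.49, 5.94 and 6.80 after PP242 and 6.59, 6.63 and 8.06 after RAD001. All PP242 arrays lay below DMSO, whereas RAD001 replicates 1 and 2 lay below and replicate 3 above. The PP242 difference of -0.75 ± 0.43 did not pass (adjusted p = 0.711); without the 8 arrays it was -0.94 and passed (adjusted p = 0.0418), the only member to do so then in a comparison with DMSO.

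BNIP3, a mitophagy receptor, had polysome levels of 10.71, 10.73 and 10.74 after DMSO and 10.19, 10.30 and 10.31 after PP242. The groups did not overlap, with a difference of -0.46 ± 0.20 (unadjusted p = 0.0302, adjusted p = 0.501). BNIP3L, its relative, read 10.51, 10.21 and 10.48 after PP242 and 11.21, 10.89 and 10.74 after RAD001 in polysome RNA. The groups did not overlap, but their difference of -0.55 ± 0.22 did not pass (adjusted p = 1). NDRG1, a stress-induced gene, read 11.11, 11.56 and 11.21 after DMSO and 11.54, 11.54 and 12.34 after RAD001, where the lower RAD001 arrays overlapped DMSO (0.51 ± 0.27, adjusted p = 1). RAD001 replicate 3 is one of the 8 arrays that stood apart, and without them the difference was 0.25 ± 0.24. VEGFA, the angiogenic factor, P4HA1 and P4HA2, which hydroxylate collagen, ANKRD37, and the histone demethylase KDM3A differed from DMSO by -0.20 to 0.49 over both fractions.

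IR alone moved no member past the threshold. The fit was unpaired, although replicate numbers paired IR and DMSO in polysome RNA. Shifts shared within a number therefore remain in the SE there, and a paired test was not run. The member medians were 0.04 in polysome RNA and 0.00 in total RNA, against 0.00 for all genes in both. By p the leading members were PFKL, the liver-type phosphofructokinase (0.30 ± 0.20), and BNIP3 (-0.28 ± 0.20) in polysome RNA, and EGLN3 (-0.11 ± 0.10) and PDK1 (0.14 ± 0.17, and -0.041 without IR replicate 2) in total RNA (smallest adjusted p of any member in the 3 comparisons 0.99998).

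Between treatments no member passed the limma test either, in 18 comparisons, and 0 to 5 members had an unadjusted p under 0.05. The share of genes that passed was 0.13% for PP242 + IR against IR in polysome RNA, 0.0268% for the same in total RNA and for PP242 against RAD001 in polysome RNA, 0.00447% in 4 further comparisons, and 0% in the other 11. PFKFB3 had the lowest p of the members in PP242 + IR against IR, in polysome RNA. There the PP242 + IR arrays given above lay below all 3 IR arrays, a difference of -0.73 ± 0.16 that missed the threshold (adjusted p = 0.0753). Adding IR to either inhibitor moved no member by more than 0.31 in polysome RNA.

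Polysome minus total lay above its DMSO value for most members under each inhibitor, but no member passed. These comparisons share the DMSO arrays. The difference was above 0 in 30 of 35 members after PP242, 32 after RAD001, 23 after PP242 + IR and 28 after RAD001 + IR, with medians of 0.20, 0.25, 0.13 and 0.12; for all genes they were -0.01, 0.03, 0.02 and 0.04. All 15 glycolytic enzymes lay above 0 after PP242, RAD001 and PP242 + IR, and 14 after RAD001 + IR, the exception being ALDOA at -0.02. For PFKL, the lowest p in 3 of the 4, it was 0.67 ± 0.28 after RAD001, 0.53 ± 0.28 after PP242 and 0.45 ± 0.28 after RAD001 + IR, each with an adjusted p of 1. The next lowest p belonged to HK1 after PP242 (0.37), PFKM after RAD001 (0.48) and EGLN3 after RAD001 + IR (0.19), while PFKFB4 (0.18) and HK1 (0.34) led after PP242 + IR, and BNIP3 (-0.31) and PFKL (0.28) after IR. Over the 11 comparisons of this kind the smallest adjusted p of a member was 0.9997, and 0% of genes passed in 10 of them. Without the 2 compressed total RNA arrays the member medians became 0.11 after PP242 and 0.12 after RAD001, with 23 and 27 members above 0, and the enzyme medians went from 0.37 to 0.26 and from 0.48 to 0.37. Without the 8 arrays the member medians were 0.26, 0.23, 0.04 and 0.12 after PP242, RAD001, PP242 + IR and RAD001 + IR, and the enzyme medians 0.38, 0.40, 0.19 and 0.21.

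Within each treatment polysome RNA was set directly against total RNA. The fit was unpaired, although replicate numbers paired the fractions in PP242, RAD001 and RAD001 + IR. Shifts that both fractions of a replicate share therefore remain in the SE, and a paired test was not run. Members that passed were all higher in polysome RNA: 2 after DMSO (ALDOA, PFKFB3), 2 after IR (GPI, PFKL), 9 after PP242, 9 after RAD001, 3 after PP242 + IR (GPI, PFKL, ALDOA) and 6 after RAD001 + IR. The shares of all genes that passed were 4.16%, 4.36%, 8.8%, 11.3%, 4.59% and 8.13% in the same order, and those of members 5.71%, 5.71%, 25.7%, 25.7%, 8.57% and 17.1%. A separate fit took only the 11192 genes at or above the median level, with the adjustment over those genes alone. The shares that passed there were 9.49%, 10.7%, 17.9%, 23.0%, 11.4% and 17.6%. Of the 33 members in that fit 2, 3, 9, 11, 4 and 6 passed. Its threshold differs from that of the main fit, so its shares are not directly comparable with those of all genes. Against that background the members' counts lay below it in DMSO and close to it in IR, PP242 + IR and RAD001 + IR. They lay above it in PP242 and RAD001, which was not tested. The background was not matched to the members' level: it starts at 5.16, while the members' median per array was 9.12 to 10.5. Of the 31 passes 6 held in every fit that left out 1 array of the comparison: PFKL after PP242, RAD001 and RAD001 + IR, and GPI, PFKM and ALDOA after RAD001. Without the 2 compressed arrays 2 members passed after PP242 and 6 after RAD001. Without the 8 arrays that stood apart the 6 counts were 2, 4, 9, 9, 0 and 1. With the replicate number as a block over all 12 groups, 16 members passed after RAD001, all 9 included. That block is not a paired test within RAD001. Of all genes that passed, 66.1%, 51.5%, 65.7%, 65.6%, 53.1% and 55.7% were higher in polysome RNA in the same order of treatments, and after quantile normalization 74.5%, 73.7%, 81.4%, 84%, 76.3% and 80.9%.

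GPI, the phosphoglucose isomerase, and PFKL passed in 5 treatments each. GPI read 14.47, 14.66 and 14.26 in polysome RNA and 13.58, 13.26 and 13.21 in total RNA after RAD001, a difference of 1.11 ± 0.24 (adjusted p = 0.00355). Its difference after DMSO was 0.60 ± 0.24 and did not pass (adjusted p = 0.178). PFKL read 8.82, 9.37 and 9.44 against 8.15, 8.10 and 7.998 after RAD001 (1.13 ± 0.20, adjusted p = 0.000592), with no overlap. After PP242 the PFKL arrays read 9.02, 9.46 and 8.98 against 8.53, 7.93 and 8.04, again apart (0.99 ± 0.20, adjusted p = 0.00293).

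ALDOA, the main aldolase, passed in 5 treatments with differences of 0.55 to 0.70. After DMSO it read 7.82, 7.75 and 7.84 in polysome RNA and 7.27, 7.14 and 7.31 in total RNA, which did not overlap (0.56 ± 0.16, adjusted p = 0.0449); the pass was lost in 6 of 6 fits without 1 array. PFKM, the muscle-type phosphofructokinase, and TPI1 passed after PP242, RAD001 and RAD001 + IR, by 0.75 to 0.87 for PFKM and 0.94 to 1.08 for TPI1. PGAM1 passed after PP242 (1.20 ± 0.38, adjusted p = 0.0468) and RAD001 (1.17 ± 0.38, adjusted p = 0.0446). PFKFB3 passed after DMSO (0.58 ± 0.16, adjusted p = 0.0416), RAD001 (0.63 ± 0.16, adjusted p = 0.0127) and RAD001 + IR (0.55 ± 0.16, adjusted p = 0.0352). Leaving out 1 array ended the PGAM1 pass in 4 of 6 and 4 of 6 fits, and that of PFKFB3 in 4 of 6, 2 of 6 and 5 of 6.

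Outside the enzymes, PDK1 passed after PP242 (0.57 ± 0.17, adjusted p = 0.0394) and RAD001 (0.65 ± 0.17, adjusted p = 0.0153). EPAS1 (0.74 ± 0.23, adjusted p = 0.039) and NDRG1 (0.89 ± 0.27, adjusted p = 0.0404) passed after PP242 alone, and P4HA2 after RAD001 alone (0.52 ± 0.16, adjusted p = 0.0312). Without 1 array these passes were lost in 5 of 6 fits for PDK1 after PP242 and 2 of 6 after RAD001, 4 of 6 for EPAS1, 5 of 6 for NDRG1 and 3 of 6 for P4HA2. Their passing in 1 treatment was not shown to differ between treatments, since no polysome minus total comparison passed for any member.

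The role groups differed in the size of this polysome excess, given here as a description. All 15 glycolytic enzymes lay above 0 in all 6 treatments, with medians of 0.39 after DMSO, 0.51 after IR, 0.73 after PP242, 0.91 after RAD001, 0.73 after PP242 + IR and 0.73 after RAD001 + IR. The 9 hypoxia response genes had medians of -0.10 to 0.08, with VEGFA and KDM3A below 0 in 5 of 6 treatments each. Medians of all genes ran from -0.07 to 0.00, and those of the 11192 brighter genes from 0.07 to 0.17. After quantile normalization the median of all genes lay between 0.07 and 0.11, and the enzyme medians exceeded it by 0.29, 0.48, 0.55, 0.74, 0.73 and 0.70; HK1 after DMSO then turned slightly negative (-0.01). In the same comparisons 26 to 31 of 32 DNA replication genes, 22 or 23 of 23 sterol and fatty acid genes and all 9 epithelial markers also lay above 0, with medians of 0.35 to 0.62, 0.38 to 0.65 and 0.30 to 0.67, so these lists lay on the same side. Fibroblast (0 to 5 of 9), leukocyte (2 to 5 of 9) and endothelial markers (2 to 6 of 8) did so less uniformly.

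**Figure D3:**
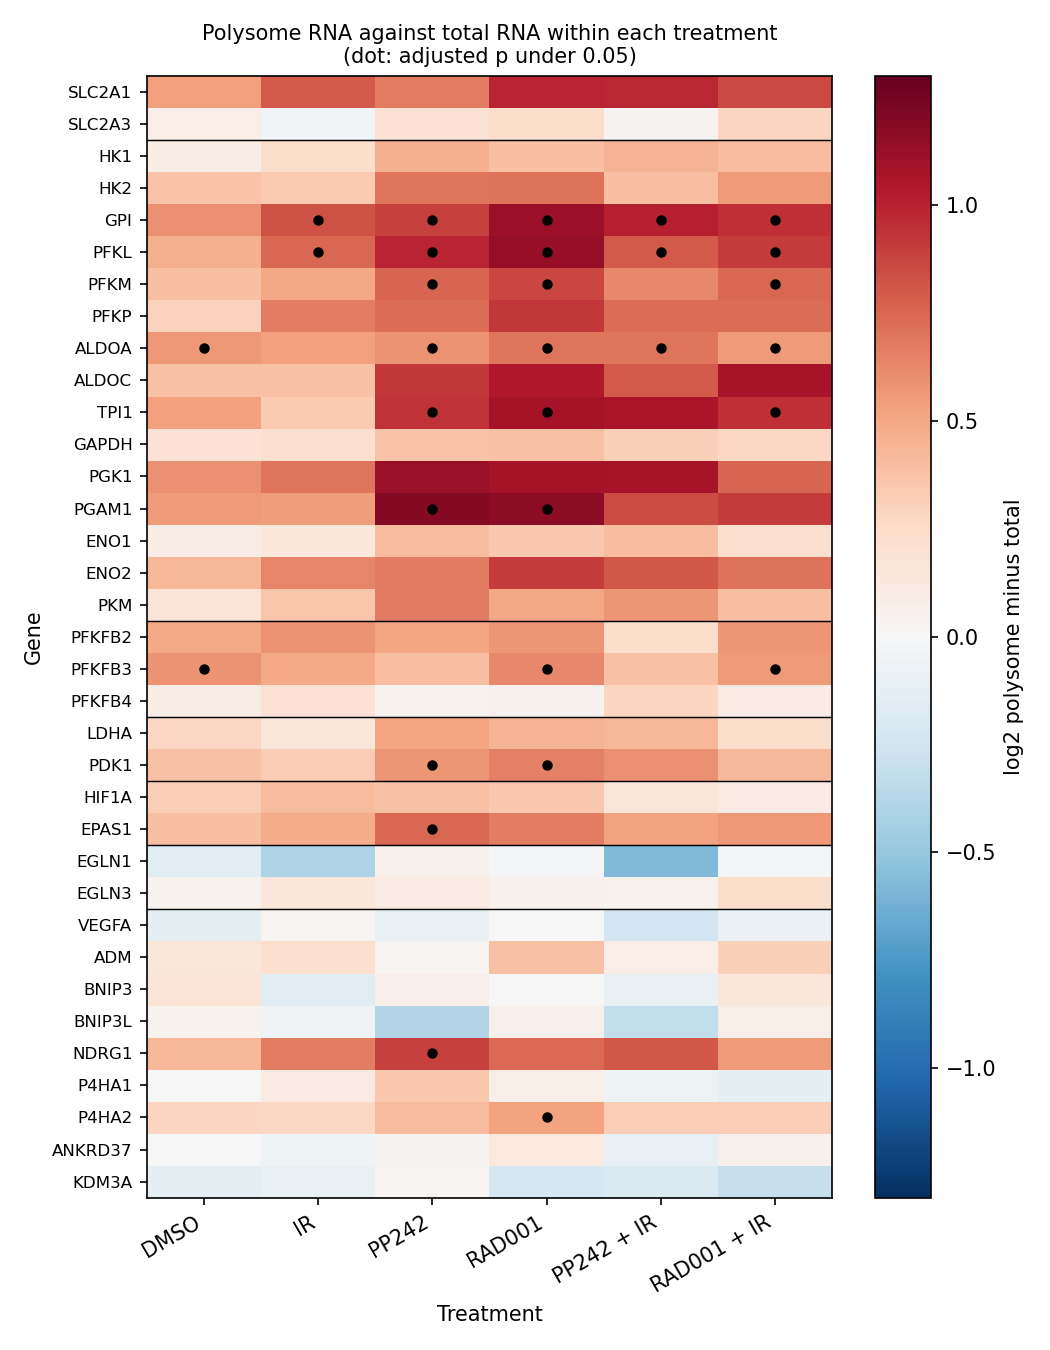
Log2 difference between polysome and total RNA (colour) for the 35 members (rows, in role groups) in each of the 6 treatments (columns), with a dot where the adjusted p was under 0.05. The glycolytic enzymes are above 0 in every column and the medians of the hypoxia response genes run from -0.10 to 0.08.

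On the 8 arrays that stood apart, many members differed from the other arrays of the same group. This is a description, because the arrays were picked on measured values. Of the members 12 were lower on all 8 (SLC2A1, GPI, PFKP, ALDOA, TPI1, GAPDH, PGK1, PGAM1, ENO1, ENO2, PKM and LDHA), 8 were higher on all 8 (SLC2A3, HK1, ALDOC, PFKFB2, EGLN1, VEGFA, NDRG1 and ANKRD37), and 15 went both ways. Among all 22384 genes 11.2% were lower and 11.4% higher on all 8, and among the 11192 brighter ones 19.5% and 20.1%. The members' shares were 34.3% and 22.9%, and neither background was matched to their level. Glycolytic enzymes thus lay on both sides: 10 of the 15 were lower on all 8 arrays, and HK1 and ALDOC were higher on all 8.

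PGK1, the first enzyme of the pathway to make ATP, differed from the rest of its group by -1.18 to -0.65 (median -0.96). In polysome RNA it read 14.04 to 14.67 on the 4 arrays and 14.97 to 15.49 on the other 14, with no overlap. ENO2, the neuronal enolase, had a median of -0.87, PGAM1 of -0.85, PFKP, the platelet phosphofructokinase, of -0.80, LDHA of -0.76 and PKM, the pyruvate kinase, of -0.70. GAPDH and ENO1, the main enolase, were lower by less, with medians of -0.23 and -0.31.

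PFKFB2 was higher by 1.33 to 2.29: in polysome RNA it read 9.95 to 10.02 on the 4 arrays and 7.81 to 8.27 on the others, and in total RNA 9.11 to 9.79 against 7.27 to 7.79. ALDOC, the brain-type aldolase, was higher by 0.76 to 2.36, with polysome levels of 7.46 to 8.23 against 5.31 to 5.98. EGLN1 (0.72), ANKRD37 (0.67), SLC2A3 (0.55), VEGFA (0.51) and NDRG1 (0.44) were higher by smaller medians. ADM was higher on 7 of the 8, by up to 1.61. PFKFB3, the member that passed, showed no such shift (median 0.01, 4 arrays lower and 4 higher). On the same 8 arrays the median of sterol and fatty acid genes was 9.44 to 10.45, against 8.34 to 9.47 on the others, and its part in these differences was not tested. No DMSO or IR array was among the 8.

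**Figure D4:**
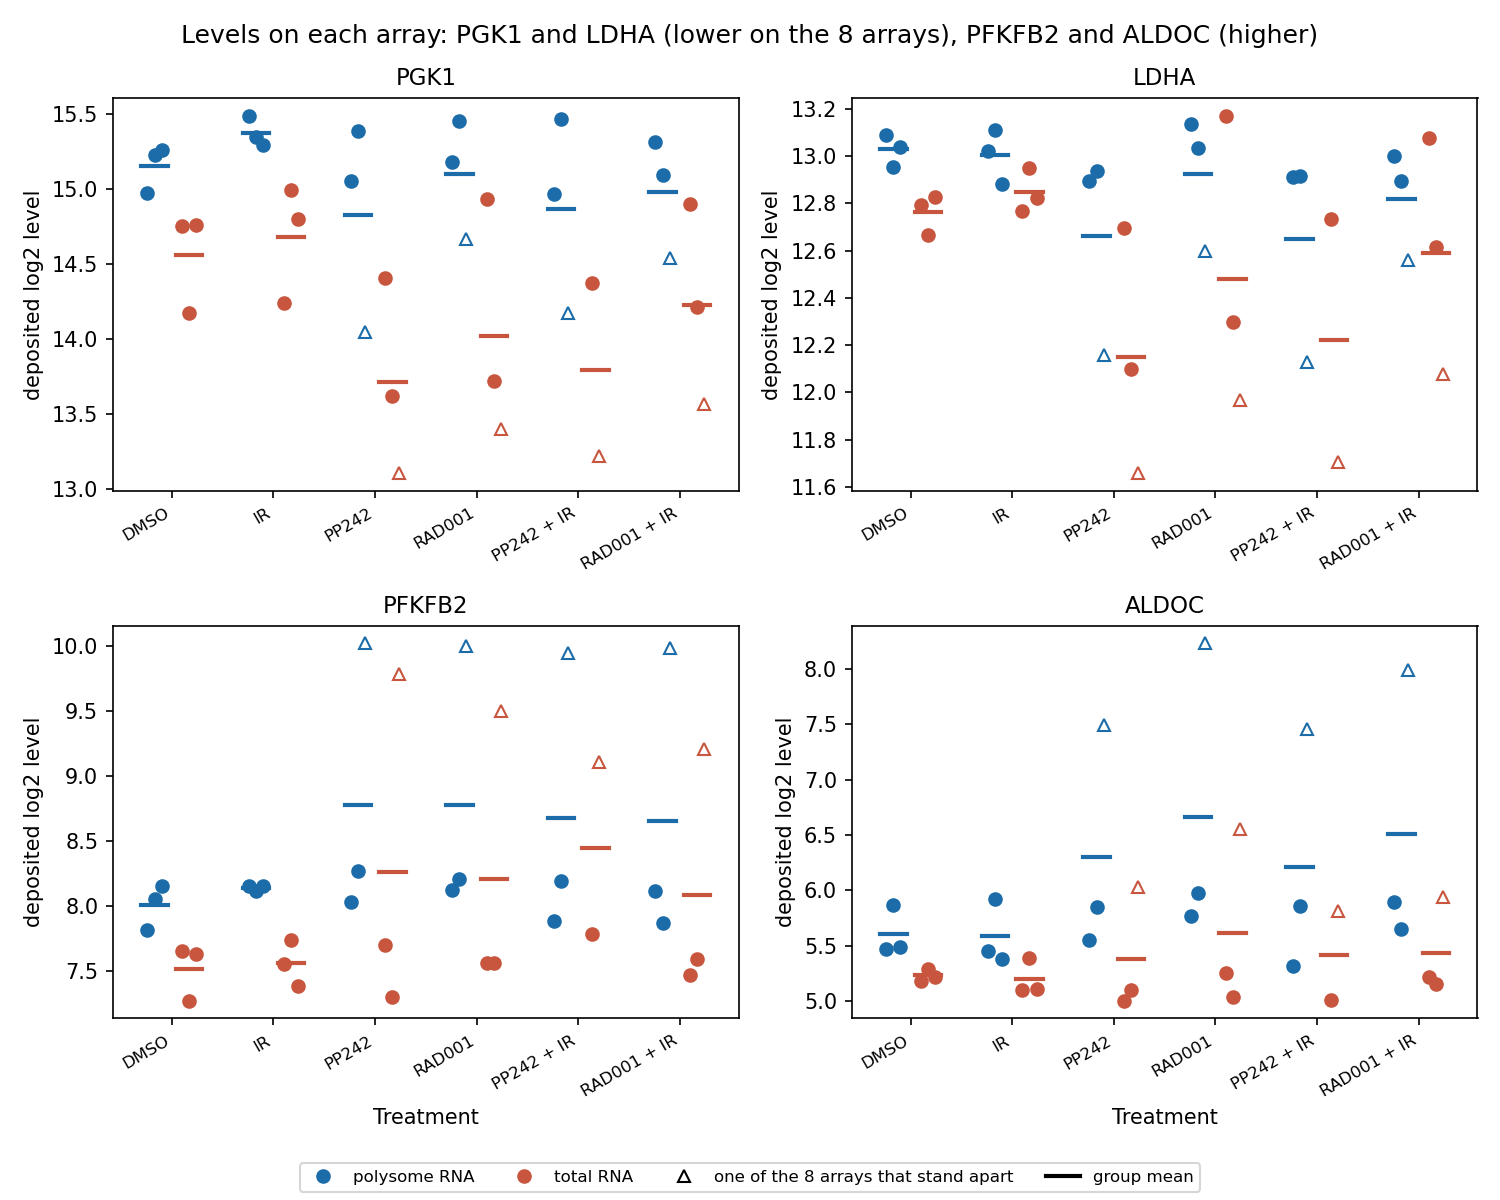
Deposited log2 levels (vertical axes) of PGK1, LDHA, PFKFB2 and ALDOC on each array by treatment (horizontal axes), polysome RNA in blue and total RNA in red, bars at group means, open triangles for the 8 arrays that stand apart. The triangles lie lowest in their groups for PGK1 and LDHA and highest for PFKFB2 and ALDOC.

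Further genes of the pathway were read from 4 lists of 103 genes, 96 of them measured: 33 of 35 other glycolysis and pyruvate genes, 5 of 7 pentose phosphate genes, 44 of 47 other HIF pathway and target genes and 14 of 14 regulators of glucose sensing. Against DMSO 2 of the 96 passed. CCNG2, a cyclin that restrains the cell cycle, rose in total RNA from 6.10 ± 0.14 (SD, n = 3) after DMSO to 6.93 ± 0.17 (SD, n = 3) after PP242, by 0.83 ± 0.13 (adjusted p = 0.00364). It also rose after PP242 + IR, by 0.83 ± 0.14 against DMSO (adjusted p = 0.0208) and by 0.87 ± 0.14 against IR (adjusted p = 0.0161), and in polysome RNA by 0.79 ± 0.13 against IR (adjusted p = 0.0105). Against DMSO CCNG2 did not pass in polysome RNA. Its polysome means were 6.02 after DMSO, 5.74 after IR, 6.54 after PP242 and 6.53 after PP242 + IR. The PP242 + IR total RNA values rest on 2 arrays, with replicate 2 among the 8 that stood apart. RAB20, a small GTPase induced by HIF, fell in total RNA after RAD001 + IR, from 6.78 ± 0.21 (SD, n = 3) to 5.76 ± 0.05 (SD, n = 3) (-1.01 ± 0.17, adjusted p = 0.0418). That pass was fragile: in 5 of 6 fits without 1 array no gene passed in that comparison.

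Between polysome and total RNA the other genes that passed were higher in polysome RNA, apart from INSIG2, a regulator of sterol synthesis, lower after IR (-1.13 ± 0.28, adjusted p = 0.0194). Of 33 other glycolysis genes 1 passed after DMSO, 2 after IR, 1 after PP242, 8 after RAD001, 0 after PP242 + IR and 1 after RAD001 + IR. Among all genes 4.16%, 4.36%, 8.8%, 11.3%, 4.59% and 8.13% passed in that order. The 8 of 33 after RAD001 thus lay above the share of all genes, which was not tested. Of the brighter genes 23.0% passed after RAD001, in the separate fit with its own adjustment. The 33 were not filtered by level either, so that share is not a like background. PDK2, a relative of PDK1, passed in every treatment except PP242 + IR, by 0.48 to 0.61, and after RAD001 the pyruvate dehydrogenase subunits PDHB (0.91) and PDHA1 (0.69), FBP1, the gluconeogenic phosphatase (0.80), and HKDC1 (0.61) passed too. Of 5 pentose phosphate genes TALDO1 passed after IR (1.09), and TALDO1 (1.07), TKT (1.002) and PGD (0.96) after RAD001. Of 44 HIF pathway genes 2, 3, 6, 4, 3 and 5 passed in the order of treatments above. GYS1, a glycogen synthase, passed in all 6 by 1.02 to 1.17, PLOD1, a lysyl hydroxylase, in all but DMSO by 0.73 to 1.06, and HIF1AN, the asparaginyl hydroxylase that restrains HIF, after DMSO, PP242, RAD001 and RAD001 + IR by 0.81 to 0.99. MIF, a cytokine, passed after PP242, PP242 + IR and RAD001 + IR by 1.06 to 1.60, and RAB20 after PP242, RAD001 and RAD001 + IR by 0.58 to 1.10. Of the 14 glucose sensing regulators ESRRA passed after RAD001 (0.94) and SP1 after PP242 + IR (0.85).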

How the data were processed

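The authors' deposited table holds 1 value per probe set and array. The deposited values were read as log2 from their range (1.85 to 19.9); how they were scaled, centred, background-corrected or normalized is not given in the sources used. Of 65029 probe sets, 23077 carried 1 gene symbol in the platform annotation, 1357 several and 40595 none; each of 22384 symbols was represented by its brightest probe set on average. limma 3.58.1 (R 4.3.3) fitted 12 group means to all 35 arrays (lmFit and eBayes, 23 residual and 2.69 prior degrees of freedom), with Benjamini-Hochberg adjustment over all genes in each of 39 comparisons; the code was tested on simulated data. The number of arrays limits the precision. The labels' growth and extraction texts do not describe this cell line and were not used.

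The members and gene lists were chosen with earlier results of these data known. Named with values were all members that passed, the 2 with the lowest p in each comparison with DMSO without one, the brightest and dimmest of each role, and passing genes of the 4 further lists (up to 4 each way per comparison, with their passes elsewhere). Other members were named after their values were seen.

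Replicate numbers, taken from the labels, paired the samples (every same-number correlation of deviations over 0.1) for IR against DMSO in polysome RNA (0.12 to 0.33) and for polysome against total RNA in PP242 (0.23 to 0.60), RAD001 (0.21 to 0.64) and RAD001 + IR (0.36 to 0.69). Alternatives were quantile normalization, a low-level filter, the mean of probe sets, only the groups compared, a replicate block, array weights, a trended prior, the design text's threshold (log2 change over 1.5), the 8 arrays left out, and each array left out; a 1.5-fold threshold with unadjusted p and leaving out the 2 compressed arrays were chosen after seeing the data. Promoters come from RefSeq.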

Additional observations from a re-analysis of the deposited data

How the results depend on the processing

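The text's counts of members that passed depended on the setting. For PP242 against DMSO in polysome RNA the count of 1 (PFKFB3) became 0 after quantile normalization, with only the groups compared, with a trended prior, under the design text's threshold and in every fit without 1 array (0 to 0), and 2 with array weights. In PP242 total RNA the count of 0 became 1 after quantile normalization and without the 2 compressed arrays, 2 with array weights, 3 under the 1.5-fold threshold and 0 to 1 without 1 array. For PP242 + IR in polysome RNA it became 1 with the low-level filter, the replicate block, array weights, the 1.5-fold threshold and without the 2 compressed arrays. In RAD001 + IR total RNA it became 2 with array weights. Under the 1.5-fold threshold, counts of 0 became 3 in RAD001 total RNA, 1 in RAD001 polysome minus total, 2 in PP242 + IR total RNA, 1 in RAD001 + IR total RNA, 2 and 4 in PP242 + IR against IR (polysome and total RNA) and 1 in RAD001 + IR against IR total RNA; array weights gave 1 in PP242 + IR against IR polysome RNA.

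For polysome against total RNA, the design text's threshold gave 0 in every treatment. After DMSO (2) the count became 1 after quantile normalization, with only the groups compared and under the 1.5-fold threshold, 6 with array weights, 0 with a trended prior and 0 to 1 without 1 array. After IR (2) it became 4 after quantile normalization, without the 8 arrays and under the 1.5-fold threshold, 6 with array weights, 1 with a trended prior and 0 to 1 without 1 array. After PP242 (9) it became 0 with only the groups compared, 2 without the 2 compressed arrays and 1 to 12 without 1 array. After RAD001 (9) it became 2 with only the groups compared, 16 with the replicate block, 15 under the 1.5-fold threshold and 5 to 11 without 1 array. After PP242 + IR (3) it became 7 after quantile normalization and with the replicate block, 0 with only the groups compared and without the 8 arrays, 9 under the 1.5-fold threshold, 5 without the 2 compressed arrays and 0 to 5 without 1 array. After RAD001 + IR (6) it became 12 after quantile normalization, 2 with only the groups compared, 1 without the 8 arrays and 1 to 4 without 1 array. PDK1 after IR in total RNA (0.14) ran from -0.041 without IR replicate 2, a reversed sign, to 0.25 without replicate 3. The replicate block fitted shifts by number over all 12 groups together, so it did not pair the fractions within a treatment. For polysome against total RNA it gave 12 after PP242 and 8 after RAD001 + IR. Causes were not tested. Signal near background limits EGLN3 and PFKFB4.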
